A study of Mus musculus with 6 samples.

Results

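The WAVE complex was followed through 9 of the 46078 genes listed in the deposited counts, namely *Cyfip1*, *Cyfip2*, *Wasf1*, *Wasf2*, *Wasf3*, *Nckap1*, *Abi1*, *Abi2* and *Brk1*, found by their gene names. The genes were chosen by measured values, since the fall of *Cyfip2* between *Hnrnpa2b1* knockout (KO) and wild type (WT) cells is the reason for following them. *Cyfip2* is therefore described with no test. RNA-sequencing was performed on C2C12 cells, an immortalized mouse myoblast line, in 3 libraries of KO cells (KO1 to KO3) and 3 of WT cells (WT1 to WT3). KO cells carry a CRISPR-Cas9 disruption of *Hnrnpa2b1*, which encodes an RNA-binding protein of the hnRNP family. Both genotypes had been withdrawn from serum with ITS added for 2 days, a treatment that induces myoblasts to fuse into myotubes. The study reports that KO cells failed to form large myotubes with many nuclei by this time. Stage of differentiation may therefore differ between the genotypes, and its part in the values below was not tested. According to the methods, cells of both genotypes were isolated as independent clones, but the clone behind each library is not named, so p-values measure the spread between these libraries.

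The WAVE complex links signalling by the small GTPase Rac to branched actin at the cell edge. A WASF (WAVE) protein carries the stretch that activates the actin-nucleating Arp2/3 complex, and CYFIP, NCKAP1, ABI and BRK1 subunits hold it inactive until Rac binds CYFIP. Each complex holds a single protein per position, so the paralogs within a position are alternatives, and myoblast fusion is a known setting in which Rac and branched actin act. CYFIP proteins also bind FMRP and the cap-binding factor eIF4E, a separate role in holding back translation.

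The *Cyfip* paralogs are the members the data turn on, and their coding sequences are shown so that a reader can see how far reads of one could be taken for the other. Coding sequences were read from GENCODE M21 (GRCm38), where *Cyfip1* lies on the plus strand of chromosome 7 and *Cyfip2* on the minus strand of chromosome 11. The first 120 coding bases of each follow, 5′ to 3′, from the start codon, with capitals at the 29 bases that differ between them.
Cyfip1: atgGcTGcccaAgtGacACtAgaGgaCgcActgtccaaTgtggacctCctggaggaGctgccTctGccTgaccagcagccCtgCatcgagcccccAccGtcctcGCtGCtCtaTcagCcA
Cyfip2: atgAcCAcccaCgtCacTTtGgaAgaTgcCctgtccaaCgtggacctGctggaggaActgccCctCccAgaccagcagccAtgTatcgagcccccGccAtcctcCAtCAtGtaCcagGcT
The differing bases are spread along the stretch rather than gathered at one end. Both coding sequences are 3762 bases long and were identical at 2922 of 3759 aligned bases, or 77.7%. The longest run shared by both is 24 bases, starts at coding base 1024 of each and is shown because it is far shorter than the 150-base reads.
Cyfip1 and Cyfip2: cagtacaacatctgtgagcagatg
Of the 6560 stretches of 100 bases in the *Cyfip2* transcript, 0 occur in a transcript of another gene. For *Cyfip1*, 1266 of 6341 such stretches (20%) also occur in transcripts of *Nipa2* or *Gm44616*, so part of its reads could be split or discarded by the counting. The other 7 members share 0 such stretches with any other gene. *Abi1* and *Abi2* were identical at 70.8% of aligned coding bases, and the *Wasf* paralogs at 66.1% to 66.7%.

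Each library held 33605258 to 40558740 reads assigned to genes. Over all genes tested in the comparison of KO with WT, 22.7% passed an adjusted p of 0.05 in edgeR's quasi-likelihood test and the median log2 fold change was 0.03. The RNA of the targeted gene *Hnrnpa2b1* was 159, 195 and 249 CPM (reads of a gene per library total after TMM scaling) in KO1 to KO3 and 225, 229 and 252 CPM in WT1 to WT3, which overlap, with a log2 fold change of −0.23 (SE 0.18, edgeR adjusted p = 0.381). The study assessed loss of the protein, which is not analysed here, and the RNA level gives no check of the genotype labels. Muscle markers were present in every library, and their summed level was 7365 to 19660 CPM in KO and 13260 to 17117 CPM in WT.

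*Cyfip2* (ENSMUSG00000020340, chromosome 11, 46193850 to 46312859, minus strand), the CYFIP paralog known for its part in neurons, was the member with the greatest difference. It had 240, 31 and 19 reads in KO1 to KO3 against 2782, 1746 and 4447 in WT1 to WT3. As CPM these were 6.72, 0.710 and 0.464 in KO and 80.5, 53.2 and 120 in WT. Every KO library lay far below every WT library, and KO1 stood apart from the other KO libraries with more of the transcript. The mean was 2.63 ± 3.54 CPM (SD, n = 3) in KO and 84.5 ± 33.5 CPM (SD, n = 3) in WT, which is 32.1-fold lower in KO. The fitted log2 fold change was −5.03, and it was −7.16 without KO1. In bulk RNA, fewer cells that express a gene and less RNA per cell cannot be told apart. KO1 was also the KO library with the highest sum of muscle markers, at 19660 CPM against 8192 and 7365 CPM in KO2 and KO3. Of the 9 muscle markers, 1 was higher in KO (*Myod1*) and 1 was lower (*Actn2*), a share close to the 22.7% of all tested genes, and their part in the difference of *Cyfip2* was not tested.

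*Cyfip1* (ENSMUSG00000030447, chromosome 7, 55841745 to 55930700, plus strand) is the widely expressed paralog. It had 108, 99.3 and 109 CPM in KO and 86.4, 91.3 and 86.8 CPM in WT, so every KO library was above every WT library. The mean was 106 ± 5.48 CPM (SD, n = 3) in KO and 88.1 ± 2.75 CPM (SD, n = 3) in WT. The log2 fold change of 0.26 (95% interval 0.0059 to 0.52, edgeR adjusted p = 0.122) did not pass the threshold, nor did it under any of the 11 alternatives, where it lay between 0.22 and 0.38. In TPM, which is corrected for transcript length, the KO libraries had 15.2, 14.4 and 18.8 and the WT libraries 13.3, 14.4 and 12.6, and the genotypes touched at WT2.

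Summed over both paralogs, *Cyfip* transcript was 15.8, 14.4 and 18.8 TPM in KO and 22, 20.3 and 24.6 TPM in WT. The KO libraries were all lower. *Cyfip2* made up 39.7%, 29.2% and 48.6% of *Cyfip* TPM in WT1 to WT3 and 3.87%, 0.448% and 0.289% in KO1 to KO3. In WT neither paralog made up less than 29.2% of the total, and in KO2 and KO3 nearly all *Cyfip* transcript was *Cyfip1*. The mean *Cyfip1* level was 16.1 TPM in KO and 13.4 TPM in WT, and that of *Cyfip2* was 0.244 TPM in KO and 8.86 TPM in WT.

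**Figure D1:**
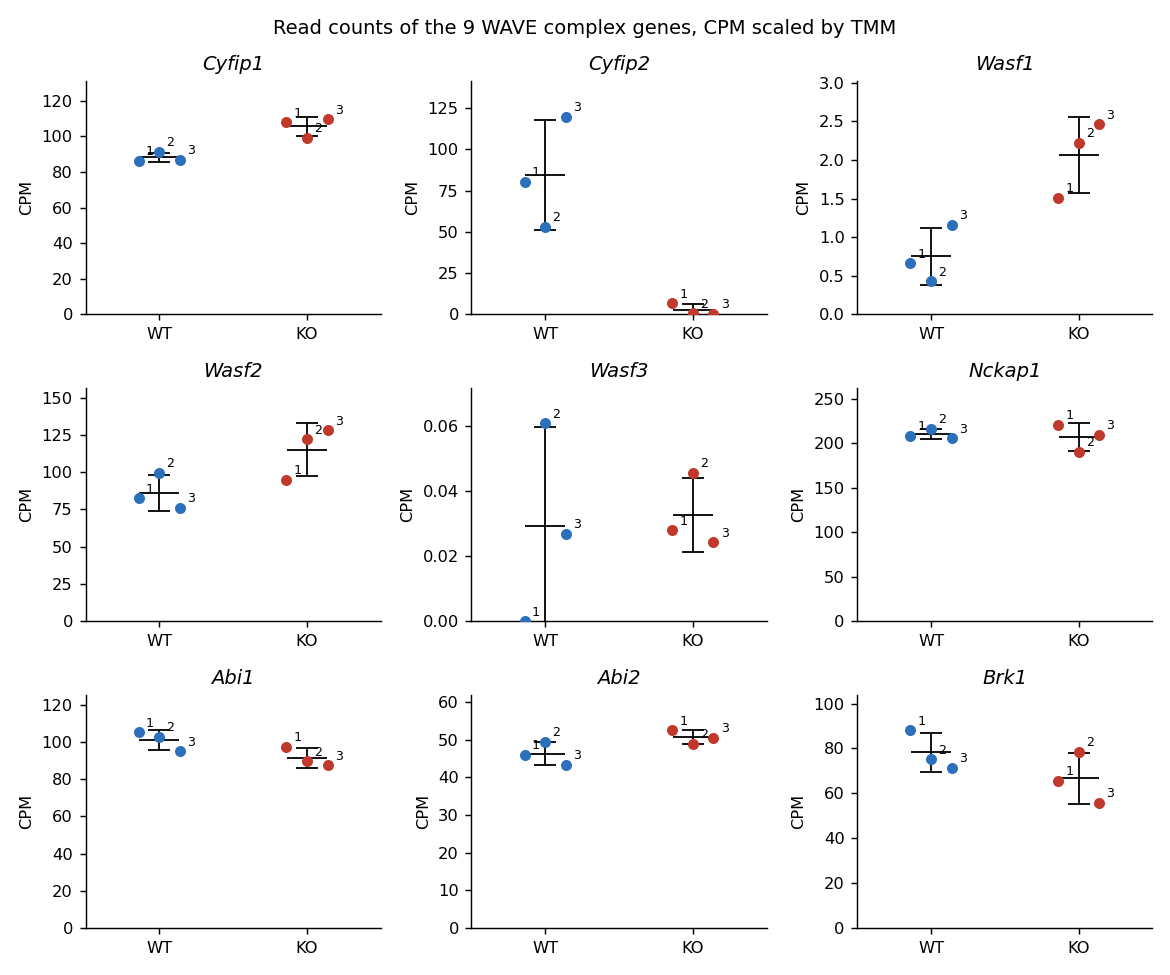
CPM scaled by TMM (vertical axes, each from 0) of the 9 WAVE complex genes in WT (blue) and KO (red), with points numbered by library and bars for the mean and SD of 3 libraries. *Cyfip2* is near 0 in KO2 and KO3 and 6.72 CPM in KO1, while the axis of *Wasf3* covers 0 to 2 reads per library.

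The *Wasf* genes encode the WAVE proteins that activate Arp2/3, and *Wasf2* was the main paralog in these cells. *Wasf2* (ENSMUSG00000028868, chromosome 4, 133130505 to 133199756, plus strand) had 94.7, 122 and 128 CPM in KO and 82.4, 99.6 and 76.1 CPM in WT. KO1 lay below WT2, so the genotypes overlapped. The log2 fold change was 0.42 (95% interval 0.04 to 0.80, edgeR adjusted p = 0.0996) and passed the threshold only without KO1, where it was 0.53 (adjusted p = 0.0294).

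*Wasf1* (ENSMUSG00000019831, chromosome 10, 40883475 to 40938570, plus strand), the WAVE paralog abundant in brain, was scarce. It had 54, 97 and 101 reads in KO and 23, 14 and 43 in WT, or 1.51, 2.22 and 2.47 CPM against 0.665, 0.427 and 1.16 CPM. Every KO library was above every WT library. Its log2 fold change was 1.45 (95% interval 0.46 to 2.44), and it was higher in KO just past the threshold (edgeR adjusted p = 0.0449). The call was lost without KO2, KO3, WT1, WT2 or WT3, with adjusted p of 0.0879, 0.111, 0.163, 0.115 and 0.0532, and was kept without KO1 (adjusted p = 0.0258). Over all 11 alternatives the adjusted p lay between 0.0106 and 0.163.

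The 6 neuron markers summed to 28.9 to 36.9 CPM in KO and 5.78 to 10.1 CPM in WT. Of the 4 tested, *Tubb3* and *Stmn2* were higher, which carried the sum, where 12.1% of all tested genes were higher. *Syt1*, with 1 to 8 reads in KO and 17 to 25 in WT, passed the filter only through WT, *Syp* did not pass the threshold, and the defining markers *Rbfox3* and *Snap25* had at most 2 reads in any library. The 4 fibroblast markers summed to 54.7 to 103 CPM in KO and 11.0 to 23.5 CPM in WT, and *Pdgfra* and *Dpt* of the 3 tested were higher, against the same 12.1%. The highest sum, in KO1, was mostly *Dcn* (90.6 CPM), which did not pass the threshold, while *Dpt* was at 3.78 CPM there. The part of these markers in the level of *Wasf1* was not tested.

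*Wasf3* (ENSMUSG00000029636, chromosome 5, 146384985 to 146473615, plus strand) had 0 to 2 reads in every library and was the member that did not pass the filter on low counts. It was listed at 0 TPM throughout. *Wasf2* therefore made up 96.4% to 97.1% of *Wasf* TPM in KO and 97.0% to 99.2% in WT, which overlap (exact two-sided permutation test, p = 0.2). In CPM the share was 98.1% to 98.4% in KO and 98.5% to 99.5% in WT, which do not overlap (exact two-sided permutation test, p = 0.1, the smallest possible). The summed *Wasf* level was 11.1, 15.2 and 19.1 TPM in KO and 10.5, 13.2 and 9.27 TPM in WT, where KO1 again lay within the WT range.

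*Nckap1* encodes the large scaffold that pairs with CYFIP, and it had the smallest log2 fold change of the 8 tested members. *Nckap1* (ENSMUSG00000027002, chromosome 2, 80500512 to 80581380, minus strand) had 221, 190 and 209 CPM in KO and 208, 216 and 205 CPM in WT, with a log2 fold change of −0.02 (95% interval −0.31 to 0.26, edgeR adjusted p = 0.915). The sign turned to 0.092 under scaling by library totals alone, which moves the median of all genes to 0.15, and to 0.039 without KO2. Its paralog of blood cells, *Nckap1l*, was at 4.53, 0.481 and 1.29 CPM in KO and 8.07, 3.66 and 8.06 CPM in WT. Its log2 fold change of −1.66 did not pass the threshold (edgeR adjusted p = 0.131), and KO1 overlapped WT2. It passed without KO1, at −2.90 (adjusted p = 0.00528), with the replicate block (−2.09, adjusted p = 0.0330) and with no filter on low counts (−1.69, adjusted p = 8.52e-05). Among the 5 blood cell markers, 0 of the 2 tested passed in edgeR, where 22.7% of all tested genes did. Of these 2, 0 were at an unadjusted p under 0.05, where 5781 of all 14828 tested genes were. The summed level of the 5 markers was 2.54 to 5.18 CPM in KO and 2.48 to 2.83 CPM in WT.

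The ABI adaptors connect the WAVE protein to the scaffold. *Abi1* (ENSMUSG00000058835, chromosome 2, 22940073 to 23040241, minus strand) had 97.5, 89.5 and 87.3 CPM in KO and 105, 103 and 95 CPM in WT, a log2 fold change of −0.14 (95% interval −0.41 to 0.12, edgeR adjusted p = 0.387). *Pdss1*, on the opposite strand, overlaps *Abi1* and had a mean of 237 reads, and the use of strand in counting is not given in the sources used here. *Abi2* (ENSMUSG00000026782, chromosome 1, 60409619 to 60481158, plus strand) had 52.5, 48.9 and 50.5 CPM in KO and 46.0, 49.4 and 43.4 CPM in WT, a log2 fold change of 0.13 (95% interval −0.13 to 0.39, edgeR adjusted p = 0.430). Neither adaptor passed the threshold, and for each the genotypes overlapped.

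*Abi1* was the main adaptor gene in both genotypes. It made up 76.9%, 77.7% and 75.5% of *Abi1* and *Abi2* TPM in KO and 78.2%, 79.1% and 78.4% in WT. Every KO library was lower, with a mean difference of −1.90 percentage points, at the smallest p that 3 libraries against 3 allow (exact two-sided permutation test, p = 0.1). In CPM the share was 63.3% to 65.0% in KO and 67.5% to 69.6% in WT, a mean difference of −4.24 points. *Brk1* (ENSMUSG00000033940, chromosome 6, 113604772 to 113616948, plus strand), the smallest subunit, had 65.6, 78.6 and 55.8 CPM in KO and 88.1, 75.3 and 71.3 CPM in WT. These overlap, and the log2 fold change was −0.23 (95% interval −0.60 to 0.14, edgeR adjusted p = 0.317).

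Of the 7 members tested other than *Cyfip2*, 1 passed the threshold in the counts (*Wasf1*, higher), where 22.7% of all tested genes passed and 12.1% did so as higher in KO. At an unadjusted p under 0.05 there were 3 (*Cyfip1*, *Wasf1* and *Wasf2*), where 5781 of all 14828 tested genes were. The genotypes did not overlap in 2 of the 7 (*Cyfip1* and *Wasf1*), where this held for 44.3% of all tested genes. In TPM, limma on log2(TPM + 1) called 0 of the 6 members tested other than *Cyfip2* at an adjusted p under 0.05, where it called 20.5% of all tested genes. The intervals of *Cyfip1*, *Nckap1*, *Abi1* and *Abi2* all lay within −0.41 and 0.52 on the log2 scale. Those of *Brk1* (−0.60 to 0.14), *Wasf2* (0.04 to 0.80) and *Wasf1* (0.46 to 2.44) reached beyond that range.

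**Figure D2:**
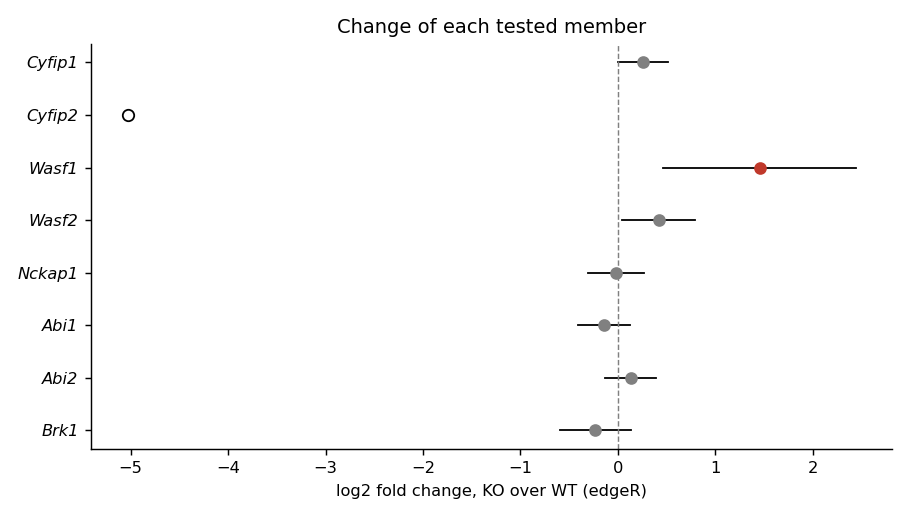
Log2 fold change of KO over WT from edgeR (horizontal axis) for the 8 tested members, with bars for the 95% interval. *Wasf1* (red) is the member past the threshold, the grey points did not pass it, and *Cyfip2* (open, −5.03) is drawn with no interval because its fall chose the genes.

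The subunits were also set in order of their level. In WT the mean TPM, a level per transcript length, ran from *Brk1* (48.6) through *Nckap1* (32.2), *Abi1* (26), *Cyfip1* (13.4), *Wasf2* (10.8), *Cyfip2* (8.86), *Abi2* (7.08) and *Wasf1* (0.187) to *Wasf3* at 0. The WT libraries of *Cyfip1* overlapped those of *Wasf2*, those of *Wasf2* overlapped *Cyfip2*, and those of *Cyfip2* overlapped *Abi2*. The other neighbours in that order were apart. In KO the order was *Brk1* (41.1), *Nckap1* (31.6), *Abi1* (23.9), *Cyfip1* (16.1), *Wasf2* (14.6), *Abi2* (7.32), *Wasf1* (0.509) and *Cyfip2* (0.244). *Cyfip2* was thus next to *Wasf2* and *Abi2* in WT and the lowest of these 8 in KO. It overlapped *Wasf1* through KO1 alone (0.613 TPM), while KO2 and KO3, at 0.0647 and 0.0544 TPM, lay below every KO library of *Wasf1* (0.327 to 0.684 TPM). The 9 members together summed to 124, 133 and 150 TPM in KO and 155, 153 and 134 TPM in WT, which overlap.

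**Figure D3:**
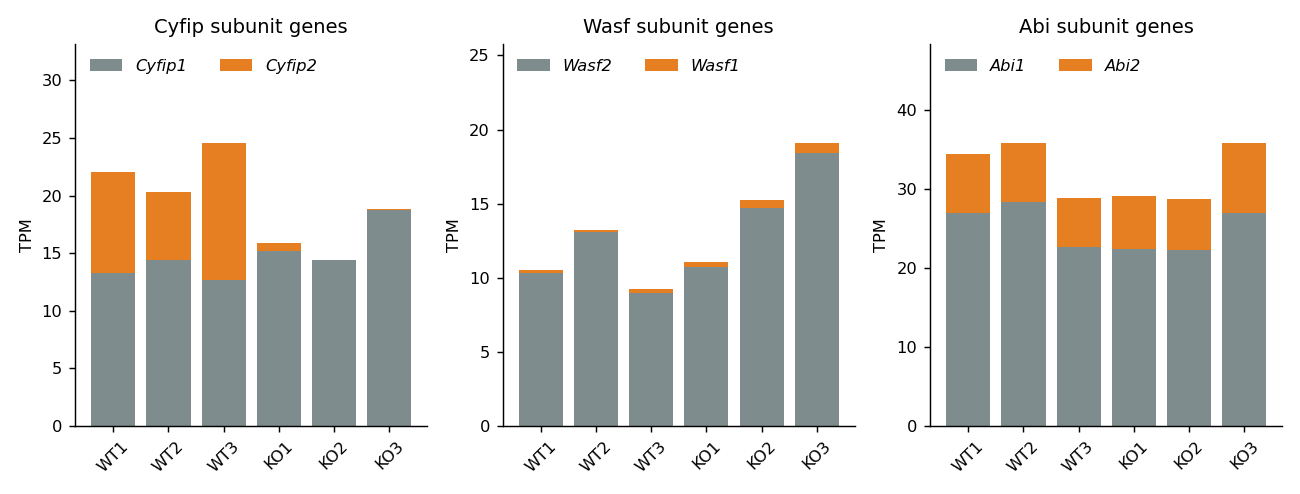
Stacked TPM (vertical axes, from 0) of the *Cyfip*, *Wasf* and *Abi* paralogs in each of the 3 WT and 3 KO libraries, with *Wasf3* at 0 and not drawn. The *Cyfip2* share of the *Cyfip* bars is 29.2% to 48.6% in WT and 0.289% to 3.87% in KO, while *Wasf2* and *Abi1* stay the main paralogs in all 6 libraries.

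The surroundings of *Cyfip2* were measured through the 5 nearest tested genes on either side. Without *Fndc9*, which passed the filter on low counts only through WT, the other 9 had a median log2 fold change of −0.37, and 7 were below 0. The same medians over 10 neighbours of each of the other 8 members lay between −0.14 (*Nckap1*) and 0.36 (*Wasf1*), and their numbers below 0 ranged from 2 to 8, with 8 around *Wasf2*. Of the 9, 1 passed the threshold as higher (*Gm12183*, 2499 kb away), near the 12.1% of all tested genes, and none as lower, where 10.6% of all tested genes did. *Fndc9* (chromosome 11, 46235531 to 46239872, plus strand) lies inside *Cyfip2* on the opposite strand, with 0 of its 2290 exon bases in *Cyfip2* exons. It had 10, 0 and 5 reads in KO and 42, 22 and 65 in WT, so its reads are few and were lower in every KO library. It is given with no test. As the use of strand in counting is not given and the libraries are of total RNA, reads of *Fndc9* and of unspliced *Cyfip2* RNA cannot be told apart. *Adam19*, a membrane metalloprotease gene just before *Fndc9* in the genome, had 173, 67.9 and 117 CPM in KO and 195, 278 and 207 CPM in WT. Every KO library was lower, with a log2 fold change of −0.92 that did not pass the threshold (edgeR adjusted p = 0.0713). The other 7 did not pass either. *Gm12165*, *Havcr2* and *Gm12174* were at −1.98, −1.05 and −0.61, *Gm12166* was at 0.49, and *Thg1l*, *Med7* and *Sgcd*, a sarcoglycan gene of muscle, were at −0.12, −0.18 and −0.37.

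**Figure D4:**
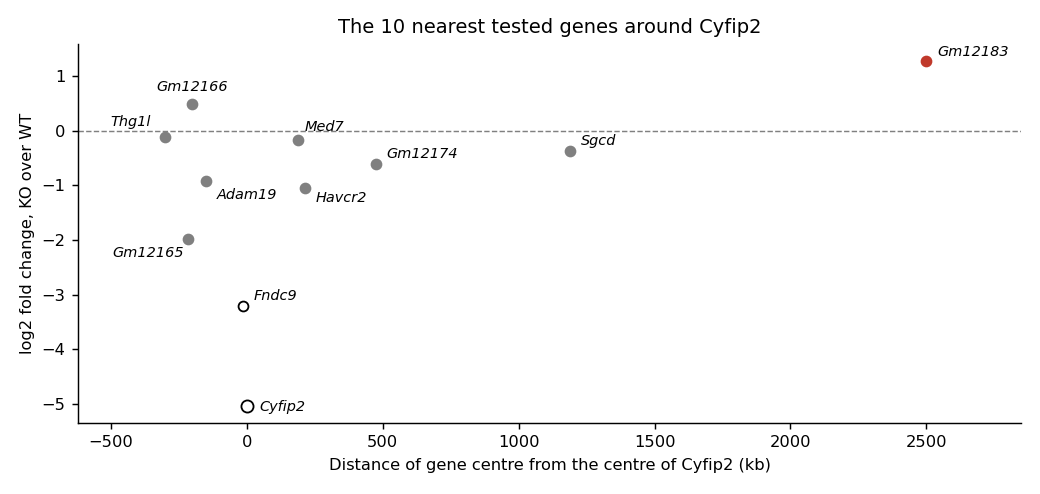
Log2 fold change of KO over WT from edgeR (vertical axis) of the 10 nearest tested genes against the distance of their centres from that of *Cyfip2* (kb), with *Gm12183*, past the threshold, in red, and *Cyfip2* and *Fndc9*, given with no test, open. *Fndc9*, nested in *Cyfip2* and with at most 10 reads in a KO library, is at −3.20, and most other neighbours lie between −2 and 0.

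Genes whose levels followed *Cyfip2* most closely over the 6 libraries were *Slc41a1* (Pearson's r of log2 CPM 0.998), *Nceh1* (0.997), *Tmem132a* (0.996), *Mrpl22* (0.996) and *Sort1* (0.995), out of 5368 well-expressed candidates. The 6 points fall into the KO and WT groups, which dominate r, so it is given as a description. *Sort1*, which encodes the sorting receptor sortilin, had 59.1, 22.7 and 23.4 CPM in KO and 242, 182 and 247 CPM in WT. *Tmem132a* had 85.1, 42.5 and 41.6 CPM in KO and 163, 147 and 212 CPM in WT. A like pattern in these genes follows from how they were chosen.

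Around the WAVE complex, 56 genes of 6 lists were looked up, of which 49 were tested. The lists were chosen with earlier results of these data known. Their shares beside those of all tested genes are therefore descriptions and no independent comparison. Leaving out *Prex1*, which passed the filter on low counts only through KO, 13 of 48 were higher and 6 lower in KO, where 12.1% of all tested genes were higher and 10.6% lower. Their number past the threshold rested on single libraries. It was 19 with all libraries, 4 without WT1, 6 without WT3, 10 without WT2, 11 without KO2, 12 without KO3 and 22 without KO1. Over all genes, 3361 calls became 933, 1288, 2100, 2695, 2088 and 4712 in the same order, so the number of calls moved with the libraries across all genes as well. The Arp2/3 complex, which WAVE activates, had 1 of 10 subunit genes higher and 2 lower, with a median log2 fold change of 0.06. *Arpc5*, a subunit with a paralog in *Arpc5l*, had 66.2, 92.0 and 87.9 CPM in KO and 39.8, 43.2 and 41.6 CPM in WT. It rose by 0.98 on the log2 scale (edgeR adjusted p = 0.00546) and passed under all 11 alternatives. *Arpc5l* had 97.1, 78.4 and 66.6 CPM in KO and 136, 146 and 111 CPM in WT. It fell by 0.70 on the log2 scale (adjusted p = 0.0274), a call lost without KO2, KO3, WT1 or WT2 (adjusted p = 0.0610 to 0.105). The pair thus moved in opposite directions. *Actr3b*, the scarce paralog of *Actr3*, was lower by a log2 fold change of −1.47 (adjusted p = 0.0409) at 15 to 82 reads per library, and its call was lost with any library left out (adjusted p up to 0.153).

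Other activators of Arp2/3 showed 2 higher and 2 lower of 11 tested, with a median of 0.05, where 12.1% and 10.6% of all tested genes were called. Of the WASH complex, which acts on endosomes, *Washc5* rose by 0.66 and *Washc3* by 0.55 on the log2 scale (edgeR adjusted p = 0.00905 and 0.0266). The other subunit genes *Washc1*, *Washc2* and *Washc4* did not pass, at −0.38, 0.13 and 0.05. *Wasl*, which encodes N-WASP, had 48.0, 51.7 and 58.7 CPM in KO and 80.9, 77.5 and 66.2 CPM in WT, a log2 fold change of −0.50 (adjusted p = 0.0331). *Whamm*, a promoter of nucleation at membranes, had a log2 fold change of −0.75 (adjusted p = 0.0411). In TPM the genotypes overlapped for *Wasl* and *Whamm*, and neither passed (limma adjusted p = 0.119 and 0.0958). *Washc5* and *Washc3* passed in TPM as well (limma adjusted p = 0.0262 and 0.0424). The list had 0 calls without WT1 or without WT3, and 1 without KO2, without WT2 or with the replicate block.

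Upstream of the complex, 1 list held Rac and Arf GTPases, activators of Rac and the adaptors *Baiap2* and *Baiap2l1*. Of its 17 tested genes other than *Prex1*, 7 were higher and 1 was lower, with a median of 0.53. Over all tested genes these values were 12.1%, 10.6% and 0.03. *Rac1* itself was at 234 ± 20.5 CPM (SD, n = 3) in KO and 227 ± 15.2 CPM (SD, n = 3) in WT. *Tiam1*, an exchange factor that loads Rac with GTP, had 39.3, 22.4 and 53.0 CPM in KO and 4.14, 8.14 and 4.69 CPM in WT. It rose by 2.76 on the log2 scale (edgeR adjusted p = 0.00393) and passed under all 11 alternatives. *Prex1*, another Rac exchange factor, had 92, 63 and 106 reads in KO against 1, 2 and 2 in WT. With its filter passed through KO alone it had to differ, and it is given as counts with no test and left out of the numbers for this list. The exchange factors *Vav3* and *Tiam2* rose by 1.40 and 1.15 on the log2 scale (adjusted p = 0.0137 and 0.0260), and both calls were lost without WT1 or WT3, that of *Tiam2* also without KO2 or KO3 (adjusted p up to 0.101). With *Arf6* and *Arf1* named after their values were seen, *Arf6* had 149, 223 and 206 CPM in KO and 91.3, 89.1 and 82.3 CPM in WT, a rise of 1.14. *Arf1*, the gene of the GTPase known to act with Rac on WAVE, had a log2 fold change of −0.70 and was the lower one. The list had 8 calls with all libraries, 2 without WT1, 3 without WT3 and 5 without WT2. In TPM, *Tiam1*, *Vav3*, *Tiam2*, *Arf6* and *Arf1* passed as well (limma adjusted p = 0.00701 to 0.0399). The list's other calls, *Baiap2*, *Elmo2* and *Vav2*, did not pass in TPM (limma adjusted p = 0.0573 to 0.0821).

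Factors that restrain Arp2/3 or its branches had 3 of 5 tested genes higher and none lower, with a median of 0.71, where 12.1% of all tested genes were higher and 10.6% lower. *Arpin*, *Coro1c* and *Gmfb* rose by 0.78, 0.72 and 0.71 on the log2 scale (edgeR adjusted p = 0.0359, 0.0212 and 0.0160). In TPM, *Coro1c* and *Gmfb* passed (limma adjusted p = 0.0495 and 0.0305) and *Arpin* did not (limma adjusted p = 0.0535). *Gmfb*, a debranching factor, had 153, 192 and 161 CPM in KO and 93.9, 119 and 96.7 CPM in WT. None of the 3 was called without WT1 or without WT3, and 1 was without KO3.

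Partners of the CYFIP proteins in translation had 1 of 4 genes lower and none higher, with a median of −0.36. This share is near the 22.7% of all tested genes called. *Fxr2*, a paralog of the FMRP gene, had 153, 131 and 115 CPM in KO and 281, 270 and 246 CPM in WT. Its level in KO was 0.499 times that in WT (edgeR adjusted p = 0.00518) and passed under all 11 alternatives. *Fxr1* (−0.55, edgeR adjusted p = 0.0527), *Fmr1* (0.47, adjusted p = 0.0947) and *Eif4e* (−0.17, adjusted p = 0.380) did not pass in counts. In TPM, *Fxr1* was lower in every KO library and passed (−0.58, limma adjusted p = 0.0326), as did *Fxr2* (limma adjusted p = 0.00391). *Fmr1* and *Eif4e* did not pass in TPM (limma adjusted p = 0.215 and 0.228). The number called in this list was 2 with DESeq2, with RLE factors and with no filter on low counts, and 3 without KO1.

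**Figure D5:**
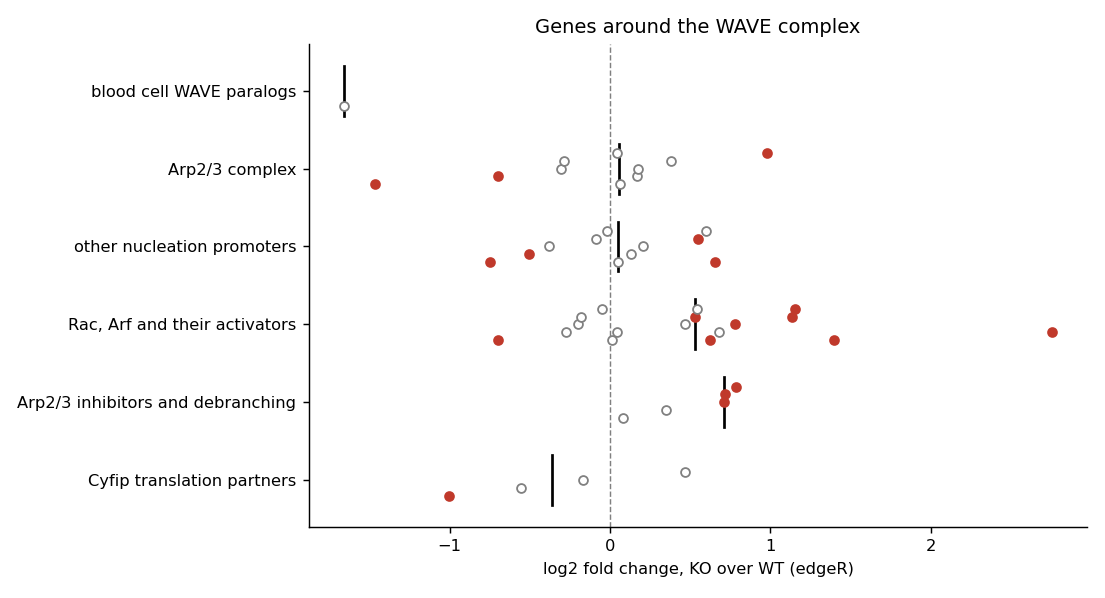
Log2 fold change of KO over WT from edgeR (horizontal axis) for the 48 tested genes other than *Prex1* of 6 lists around the WAVE complex, with red points past the threshold, open points not past it and black lines for the list's median. The point farthest right is *Tiam1* at 2.76, and the lists of Arp2/3 subunits and other promoters are centred near 0.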

How the data were processed

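Libraries of total RNA from which ribosomal RNA had been removed were made from C2C12 cells differentiated for 2 days, 3 per genotype. The authors aligned reads with STAR and deposited raw counts per gene, without normalization, from featureCounts (submitters' processing notes). They also deposited StringTie TPM values per library, with coordinates. The methods name GRCm39 and the labels mm9, whereas 96.4% of the deposited gene positions match GENCODE M21 (GRCm38), so positions are on GRCm38. The use of strand is not given in the sources used here. The counts of 6 libraries were used and 0 sample columns were left unused.

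Counts were scaled by TMM, filtered with filterByExpr (minimum count 10) and tested for 14828 genes with edgeR 4.0.16 (R 4.3.3), two-sided quasi-likelihood test on genotype, adjusted by Benjamini-Hochberg over all tested genes and called at 0.05. TPM were tested with limma 3.58.1 on log2(TPM + 1) for genes with at least 1 TPM in 3 libraries. Alternatives were DESeq2 1.42.0, RLE factors, library totals alone, no filter, a pseudocount of 0.1, the replicate number as a block and each library left out. Steps were tested on simulated data. Intervals are at 95%. Libraries of the same genotype differed by more than counting noise, and none repeated another.

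The members and lists were chosen with earlier results of these data known. Named genes were the members, *Hnrnpa2b1*, up to the 4 largest changes past the threshold in each list, the 5 nearest tested genes on either side of *Cyfip2*, and the 5 genes most like *Cyfip2* among those whose mean log2 CPM was 5 or more. Other genes named (*Nckap1l*, *Rac1*, *Washc1*, *Washc2*, *Washc4*, *Arf1*, *Arf6*, *Baiap2*, *Baiap2l1*, *Elmo2*, *Vav2*, *Fxr1*, *Fmr1*, *Eif4e* and *Pdss1*) were chosen after their values were seen. Cell type markers came from fixed lists. Genes listed under older symbols were matched by gene identifier. Splicing was not analysed here.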

Additional observations from a re-analysis of the deposited data

How the results depend on the processing

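The number of genes past the threshold was 3361 and lay between 933 and 4712 with each library left out in turn. Scaling by library totals alone gave 2295 higher calls of 3469, against 1796 of 3361. The number of members called other than *Cyfip2*, 1 with all libraries, was 0 to 2 with a library left out and 0 with the replicate number as a block, where the adjusted p of *Wasf1* was 0.0503. The lists around the complex had 19 calls, and 4 to 22 with a library left out. Same-numbered KO and WT libraries did not deviate together (r = 0.137, −0.116 and 0.00413), so the numbers give no pairing, and the block left 2520 genes past the threshold. The log2 fold change of *Nckap1* in counts turned to 0.092 under library totals alone, where the median of all genes moved from 0.03 to 0.15. With a library left out it lay between −0.076 and 0.039 in counts, turning without KO2, and between −0.14 and 0.054 in TPM, turning without KO2 or WT2. That of *Abi2* in TPM lay between −0.087 and 0.11, turning without KO3 or WT3. The cause of these shifts was not tested. The fall of *Cyfip2* kept its direction under all alternatives, between −7.16 and −4.52 in counts. With WT1, WT2 or WT3 left out, the TPM filter gave no value for *Cyfip2*. *Wasf1* and *Wasf3* had too little TPM to be tested. The depth allowed no statement on *Wasf3* beyond its 0 to 2 reads.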
